A study of Mus musculus with 2 samples.

Results

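The genes described here are 32 genes of glycolysis and of the cellular response to low oxygen, of 32285 genes in the deposited count matrices. They were chosen by symbol, and the rule used no measured value, but earlier results of these data were known when the list was made. All 32 were found, as 33 entries, because Aldoa is listed under 2 identifiers (ENSMUSG00000030695 and ENSMUSG00000114515, the second with 5 UMIs in each library), whose counts were added. By role they comprised 4 transporters of glucose and lactate, 4 hexokinases and phosphoglucose isomerase, 5 enzymes of the phosphofructokinase step, 8 enzymes from aldolase to pyruvate kinase, 3 enzymes at the branch point of pyruvate, and 8 genes of oxygen sensing and its targets.

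Glycolysis splits glucose into pyruvate in the cytosol and yields ATP without oxygen. Lactate dehydrogenase turns pyruvate into lactate, which leaves the cell through monocarboxylate transporters. When oxygen is scarce, the prolyl hydroxylases Egln1 and Egln3 no longer mark the transcription factor HIF-1α (gene Hif1a) for degradation. HIF-1α then binds a short DNA core and raises most glycolytic enzymes, the glucose transporter Slc2a1, the growth factor Vegfa and the mitophagy receptors Bnip3 and Bnip3l. In macrophages this programme is known to accompany inflammatory activation, and neutrophils are known to draw most of their ATP from glycolysis.

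The cells came from the colon lamina propria, the connective tissue beneath the gut epithelium. The study describes pools of male mice, 8 weeks old, with n = 6, and GEO labels the cells CD11b-positive. There were 2 libraries, 1 per group, titled Runx3_fl and Runx3. RUNX3 fl/fl-Lyz2-Cre mice, in which Cre is driven by the Lyz2 gene of myeloid cells, were compared with RUNX3 fl/fl littermates, so the floxed Runx3 allele is common to both groups, and neither title states whether Cre was present. With 1 library per group there is no replicate check and no test of the condition. Intervals, all 95%, allow for counting error alone.

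A UMI is a molecular barcode that counts 1 captured RNA molecule. There were 12968 cells with 146204416 UMIs in the library labelled Runx3_fl and 8953 with 75478164 in the library labelled Runx3. After the limits on cell quality 11885 and 8167 cells were kept, with medians of 9573 and 5731 UMIs per cell, and the libraries shared 37 cell barcodes. Each cell was classed by the marker genes of which it held at least 1 UMI, namely macrophage (Csf1r and C1qa), monocyte (Ly6c2 and Csf1r without C1qa), conventional dendritic cell or cDC (Flt3), neutrophil (Csf3r), NK (Ncr1), T (Cd3e) or B (Cd79a). Cells that belonged to exactly 1 class numbered 6736 (56.7%) and 3568 (43.7%), and cells of 2 or more classes (1901 and 2491) were left out. In the order of the libraries labelled Runx3_fl and Runx3, there were 254 and 276 macrophages, 442 and 548 monocytes, 802 and 326 cDCs, 885 and 810 neutrophils, 1286 and 90 NK cells, 2722 and 358 T cells, and 345 and 1160 B cells. Many more cells met the macrophage gate, 719 and 1083, of which 368 and 672 also held a Csf3r UMI and so were left out. Levels are given as CPM, the UMIs of a gene per 1000000 UMIs of the class. Itgam, the gene of CD11b, was at 41.2 and 12.4 CPM in T cells against 132 and 230 CPM in macrophages, so many of the cells carried little of the labelled marker.

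The labels were checked first. In macrophages of the library labelled Runx3_fl, Runx3 was at 157 CPM (144 to 172), and in those of the library labelled Runx3 it was higher, at 245 CPM (225 to 266). Counts from the 3′ end of a transcript need not show whether a floxed exon is missing, and the libraries are named by their labels throughout. Xist, a transcript of female cells, was found in the library labelled Runx3_fl (212 CPM) and nearly absent in the other (0.183 CPM). Ddx3y, a gene of the Y chromosome, was at 127 and 197 CPM. The library labelled Runx3_fl thus held transcripts of female and of male cells, although the study describes male mice. Within that library, Xist and Ddx3y were at 83.0 and 204 CPM in neutrophils and at 271 and 67.8 CPM in B cells. The sex of the animals and the group cannot be told apart. The summed level of 12 stress genes, Fos and Jun among them, exceeded that of the library labelled Runx3_fl in all 7 classes of the library labelled Runx3, for example at 3193 against 7596 CPM in macrophages and 1992 against 6717 CPM in T cells. The part of stress, sex or depth in the differences below was not tested.

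The DNA core of HIF reads ACGTG or GCGTG. Both were searched on both strands in RefSeq promoter windows of 300 bases, from 250 bases before a transcription start to 50 after it (build GRCm38.p6). There were 44 windows for 30 of the 32 genes. At least 1 core lay in 36 of these windows (81.8%) and in 43.8% of all 32851 promoter windows. The windows of the listed genes were rich in CG dinucleotides, with a median of 20 against 7, and of all windows with at least 20 the core lay in 73.6%. The latter had a median of 28, so they were richer in CG than the windows of the listed genes and not matched to them. Gpi1 and Tpi1 were the only genes with a window and no core. The stretches below are shown for 5 genes to which the results return. Each is 30 bases long and reads 5′ to 3′ on the strand of the gene, with every ACGTG or GCGTG, and every reverse complement of these, in capitals. They lie at chr9:108991773-108991802 (+) for Pfkfb4, chrX:106186938-106186967 (+) for Pgk1, chr7:46845648-46845677 (+) for Ldha, chr2:71873134-71873163 (+) for Pdk1 and chr17:46025357-46025386 (-) for Vegfa. Those of Ldha (gene at 46841475 to 46855627) and Vegfa (gene at 46016993 to 46032369) lie well inside the annotated gene, before an internal transcription start.
Pfkfb4: ttgacggatgggGCGTGcttagtccaaaag
Pgk1: gcgtcgtgcaggACGTGacaaatggaagta
Ldha: gtgtcgcagcaCACGTGgagccactcttgc
Pdk1: ccgcctacatggGCGTGtctttaaccaggg
Vegfa: ggagtGCGTGccCACGTcagagagcaacat
A match describes the letters of the window and does not show that HIF binds there.

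The summed level of the 32 genes was highest in macrophages, monocytes, T cells and neutrophils and lowest in NK and B cells, in both libraries. In the library labelled Runx3_fl, macrophages (5180 CPM, 5101 to 5260) and monocytes (5158 CPM, 5098 to 5217) stood highest and did not differ beyond counting error. T cells followed at 4894 CPM, then neutrophils at 3872, cDCs at 3444, B cells at 2642 and NK cells at 2580 CPM, with the intervals of the last pair overlapping. In the library labelled Runx3, neutrophils were highest at 4496 CPM, followed by macrophages at 4135, monocytes at 3942, T cells at 3431, cDCs at 3360, NK cells at 3049 and B cells at 1651 CPM. Gapdh, the glyceraldehyde 3-phosphate dehydrogenase often used as a reference gene, made up 15.1% to 33.4% of the sum in the first library and 15.6% to 22.8% in the second. Without it the order of the classes stayed as it was in the library labelled Runx3, and in the other library only NK and B cells changed places. The enzymes from aldolase to pyruvate kinase gave the largest part of the sum in every class, as the plot of summed levels by role shows.

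**Figure D1:**
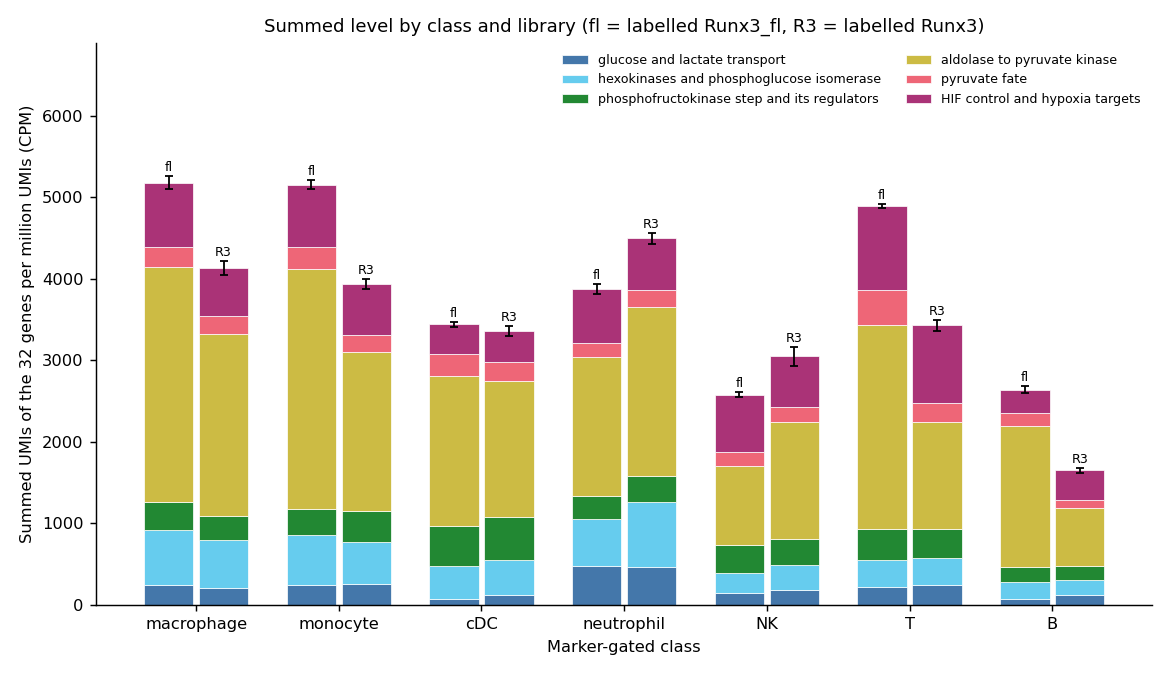
Summed CPM of the 32 genes (vertical axis) in the 7 classes, with 1 bar per library (fl, labelled Runx3_fl, and R3, labelled Runx3), coloured by role, and the exact Poisson interval of the sum as the error bar. Macrophages (5180 against 4135 CPM), monocytes, T cells and B cells were lower in the library labelled Runx3, neutrophils (3872 against 4496 CPM) and NK cells were higher, and cDCs lay close together.

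Single genes differed between cell types by far more than the sum. For 13 of the 32 genes the same class was highest in both libraries: neutrophils for 5 (Slc2a3, Slc16a3, Hk1, Hk3 and Pfkfb4), T cells for 4 (Slc16a1, Hif1a, Egln1 and Bnip3l), macrophages for 2 (Hk2 and P4ha1), cDCs for Pfkp and NK cells for Vegfa. The interval of the highest class overlapped that of the next for P4ha1 in both libraries and for Hk3 in the library labelled Runx3_fl. The same held for Hk1 and Egln1 in the library labelled Runx3.

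Vegfa, which encodes a growth factor for blood vessels, was nearly level in NK cells of the libraries labelled Runx3_fl (219 CPM, 210 to 228) and Runx3 (218 CPM, 188 to 250). In T cells it was at 6.76 and 23.3 CPM, in cDCs at 10.4 and 24.6 CPM, and in neutrophils, the next highest class, at 110 and 96.9 CPM. With each cell thinned to 2000 UMIs, 30.3% (27.8 to 32.9) and 35.2% (25.3 to 46.1) of NK cells held a Vegfa UMI, against 0.776% and 4.48% of T cells. The shares without thinning were 62.0% and 67.8% in NK cells and 5.14% and 12.0% in T cells, whose median depths were 12542.5 and 7114 UMIs against 7859 and 9298 UMIs in NK cells. The NK gate, Ncr1, is also expressed by other innate lymphoid cells, which were not separated here.

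Hif1a was highest in T cells, at 734 CPM (726 to 743) and 541 CPM (514 to 569). Macrophages held 453 and 262 CPM, and B cells were lowest in both libraries at 82.3 and 117 CPM. Egln1, the prolyl hydroxylase that sets the level of HIF-1α in most cells, was also highest in T cells at 50.3 and 52.0 CPM. Egln3, the hydroxylase that HIF itself induces, was at 27.0 and 17.6 CPM in neutrophils and at 8.50 and 31.8 CPM in T cells, so its order reversed between the libraries. Bnip3 was at 21.4 and 18.5 CPM in macrophages, 24.9 and 12.9 CPM in monocytes and 25.3 and 14.2 CPM in neutrophils. It was lower in cDCs (4.53 and 5.55 CPM), T cells (1.74 and 4.24 CPM), NK cells (2.45 and 4.42 CPM) and B cells (2.23 and 7.13 CPM). Bnip3l, its relative, was highest in T cells at 127 and 142 CPM.

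**Figure D2:**
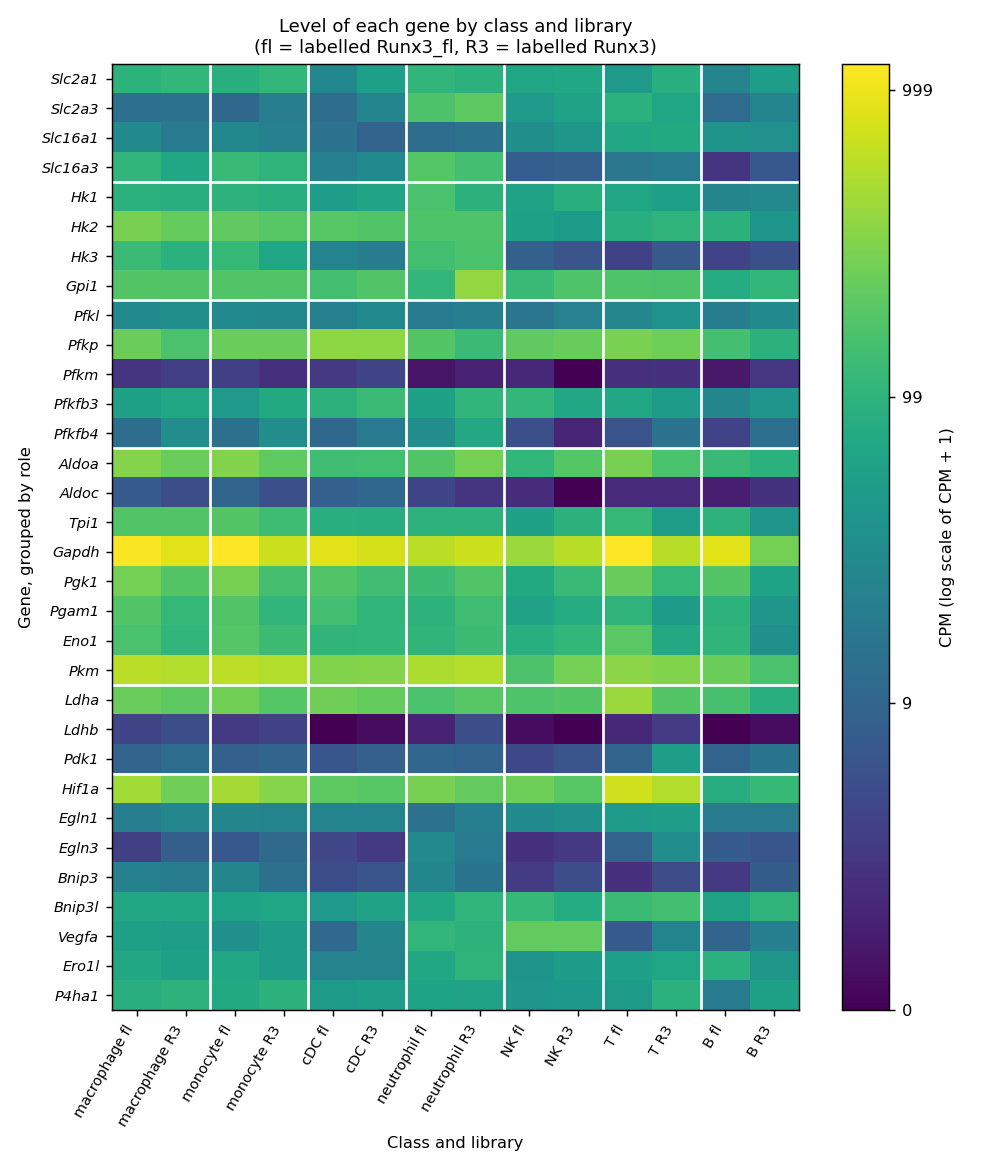
Level of each of the 32 genes (rows, grouped by role) in the 7 classes of the libraries labelled Runx3_fl (fl) and Runx3 (R3), as CPM on a logarithmic colour scale of CPM plus 1. Gapdh and Pkm are bright in every column, Vegfa stands out in NK cells (219 and 218 CPM), Hk3 in macrophages, monocytes and neutrophils, and Pfkm, Aldoc and Ldhb are near 0 throughout.

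For some steps of glycolysis that several genes can carry out, the family member with the most UMIs differed between classes. A share within a family does not depend on how the libraries are scaled, and UMIs counted from the 3′ end are not scaled by gene length. Among the glucose transporters, Slc2a1 (GLUT1) gave 88.9% (85.2 to 92.0) and 89.1% (84.7 to 92.5) of the UMIs of Slc2a1 and Slc2a3 in macrophages. The closeness of these shares depended on which cells were taken, since the Slc2a3 share was 9.27 percentage points higher in the library labelled Runx3 without cells of over 20000 UMIs and 10.7 points higher when cells with Csf3r were kept. In neutrophils the larger share was that of Slc2a3 (GLUT3), at 61.1% and 68.6%. In T cells Slc2a3 had 67.6% of these UMIs in the library labelled Runx3_fl but 43.0% in the other, a difference of -24.6 percentage points (-29.5 to -19.6).

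The UMI shares of the 2 monocarboxylate transporters separated the myeloid classes from NK, T and B cells in both libraries. Slc16a3 (MCT4), a transporter suited to lactate release, made up 78.9% and 79.4% of the 2 monocarboxylate transporters in macrophages, 81.8% and 82.0% in monocytes, 94.2% and 91.6% in neutrophils and 60.6% and 76.8% in cDCs. Slc16a1 (MCT1), which carries lactate in both directions, made up 81.2% and 80.4% in T cells, 81.7% and 84.4% in NK cells and 95.3% and 85.2% in B cells. Hk3, a hexokinase of myeloid cells, gave 30.1% and 38.0% of hexokinase UMIs in neutrophils and 25.5% and 22.5% in macrophages, against 1.97% and 3.91% in T cells. In cDCs its share was 8.81% (7.89 to 9.80) and 7.48% (5.90 to 9.32), and in the library labelled Runx3 the latter overlapped the intervals of B cells (6.38%, 4.48 to 8.76) and NK cells (3.94%, 1.29 to 8.95). Hk2, the inducible hexokinase, was the main form in macrophages at 56.1% and 55.6%.

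The lactate dehydrogenases, aldolases and phosphofructokinases had 1 main form in all 7 classes. Ldha, the muscle-type lactate dehydrogenase, gave 98.6% and 97.9% of lactate dehydrogenase UMIs in macrophages and 99.7% and 98.7% in T cells. Aldoa gave 97.9% and 98.2% of aldolase UMIs in macrophages. Pfkp, the platelet-type phosphofructokinase, gave 89.3% and 81.7% in macrophages, and its level was highest in cDCs at 360 CPM in both libraries. Its share in macrophages differed by -7.65 percentage points (-12.1 to -3.46), or by -3.36 points with 2 UMIs of each gate gene required, with Pfkl, the liver form, at 10.0% and 16.9%. Of the UMIs of Egln1 and Egln3, the only prolyl hydroxylases counted here, Egln1 gave the larger share in all classes but the neutrophils of the library labelled Runx3_fl. It gave 87.5% and 77.0% in macrophages, while in neutrophils it gave 33.5% (26.4 to 41.3) and 54.0% (46.0 to 61.9) and Egln3 the rest. Pfkfb3 and Pfkfb4 make and break down fructose 2,6-bisphosphate, the activator of phosphofructokinase, and Pfkfb4 gave 17.4% (12.6 to 23.1) and 31.7% (25.6 to 38.3) of their UMIs in macrophages, a difference of 14.2 percentage points.

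**Figure D3:**
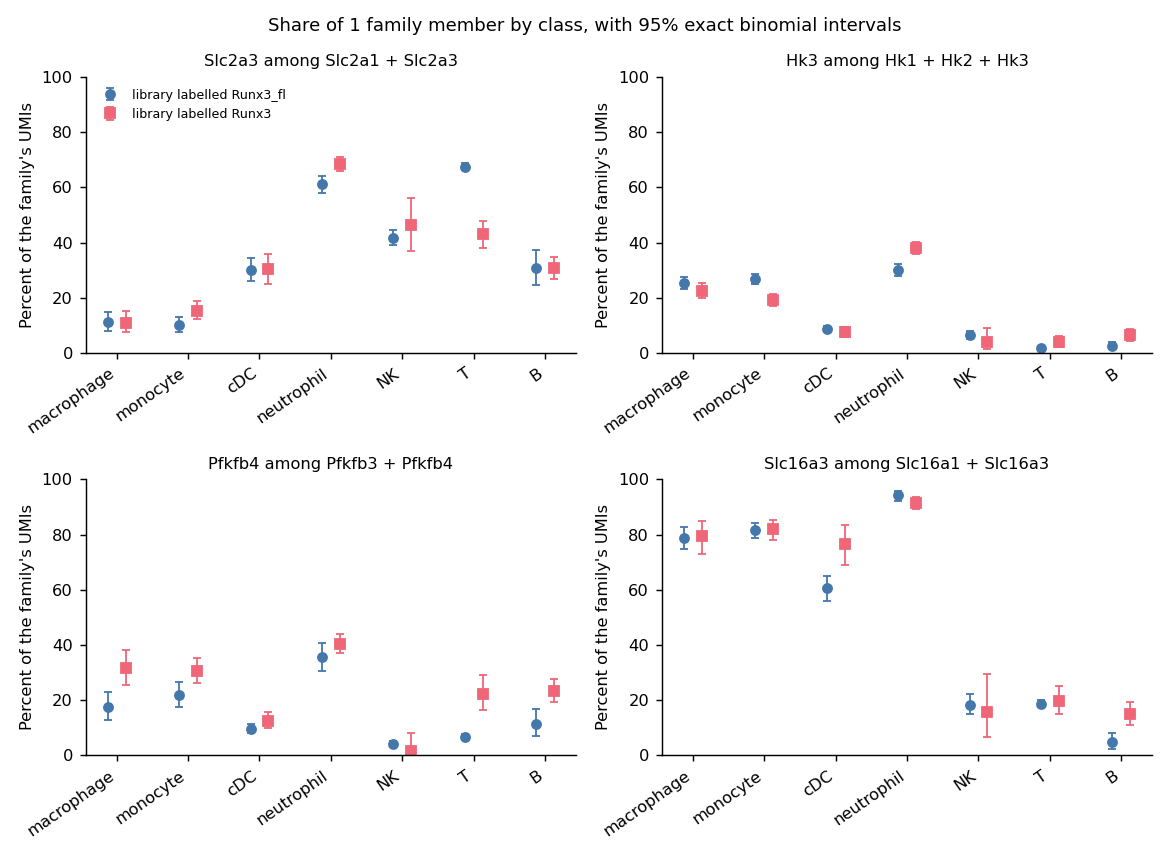
Share of the UMIs of a gene family (percent, vertical axis) given by Slc2a3, Hk3, Pfkfb4 and Slc16a3 in the 7 classes, with exact binomial intervals, for the libraries labelled Runx3_fl (circles) and Runx3 (squares). Slc16a3 is above 60% in the myeloid classes and below 25% in NK, T and B cells of both libraries, and the Slc2a3 share of T cells (67.6% and 43.0%) is the widest gap between libraries in the upper left panel.

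Differences between the libraries are log2 ratios of CPM plus 1, the library labelled Runx3 over the library labelled Runx3_fl. A gene was counted as apart at a 2-fold difference or more, among genes whose mean of the 2 libraries was at least 10 CPM in the class. In macrophages the summed level was lower in the library labelled Runx3, with a log2 ratio of -0.32 (-0.36 to -0.29). Of the 27 listed genes at 10 CPM, 1 was apart, and it was higher. Of all 7583 genes counted, 12.7% were apart, 9.59% higher and 3.1% lower. The ratio was below 0 for 19 and above 0 for 8, and the interval lay wholly below 0 for 13 and wholly above it for 1. The median was -0.20, beside 0.16 for all counted genes in macrophages, so relative to the median gene the sum was lower still, at -0.48. The macrophage classes also differed in their markers. The 9 macrophage markers, with 0 of them undetected, summed to 2944 and 6453 CPM, Apoe giving 793 and 3301 CPM, and the 8 monocyte markers, likewise all detected, to 5841 and 3963 CPM. Of the monocyte markers Lyz2, the gene that drives Cre, was at 2946 and 969 CPM and S100a4 at 428 and 388 CPM. The others, Ccr2, Plac8 (1968 and 2039 CPM), Fn1, Chil3, F13a1 and Vcan, were higher in the library labelled Runx3. Il1b, the inflammatory cytokine, was at 5144 and 1698 CPM. Their part in the difference was not tested.

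The gene apart in macrophages was Pfkfb4 (chromosome 9, 108991778 to 109032228, plus strand, GRCm38). The library labelled Runx3_fl held 38 Pfkfb4 UMIs, or 12.0 CPM (8.47 to 16.4), and the library labelled Runx3 held 70, or 31.6 CPM (24.6 to 39.9). The log2 ratio was 1.33 (0.77 to 1.90), and it fell to 0.92, inside 2-fold, when 10 CPM was added in place of 1. With cells thinned to 2000 UMIs, 4.44% (2.23 to 7.80) and 7.96% (4.79 to 12.3) of macrophages held a Pfkfb4 UMI, and these intervals overlapped. In NK cells, where Pfkfb4 was lowest in the library labelled Runx3, the thinned shares were 0.936% and 0%, and 0 of 88 cells allows a share of up to 3.41%. Pfkfb4 was highest in neutrophils. The summed level of 7 neutrophil markers in the macrophage class was 392 and 639 CPM, beside 11326 and 85916 CPM in the neutrophil class. In macrophages Il1r2 gave 379 and 268 CPM of the sum and was the only marker of the list that was lower. S100a8 gave 4.41 and 167 CPM there, and Cxcr2 gave 1.26 and 1.80 CPM. The rise of S100a8 was found in every class, for example in T cells (3.90 and 119 CPM) and cDCs (3.84 and 161 CPM). The part of these markers in the Pfkfb4 difference was not tested.

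The enzymes from aldolase to pyruvate kinase gave most of the difference in the sum of macrophages. The group was at 2876 and 2237 CPM, a log2 ratio of -0.36 (-0.41 to -0.31), and 6 of its 7 genes at 10 CPM had an interval below 0. Gapdh was at 1173 and 878 CPM, Pgk1 (phosphoglycerate kinase) at 273 and 180 CPM, Pgam1 (phosphoglycerate mutase) at 176 and 114 CPM, and Eno1 (enolase) at 159 and 108 CPM. Tpi1 (triose phosphate isomerase) was level at 177 and 178 CPM. Several of these enzymes have near-identical pseudogene copies, between which reads may be split, so their levels carry that uncertainty.

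The lowest ratio among the listed genes of macrophages was that of Hif1a (chromosome 12, 73901375 to 73947530, plus strand), at 453 CPM (430 to 477) and 262 CPM (241 to 284), -0.79 on the log2 scale (-0.93 to -0.65). The group of oxygen sensing and hypoxia targets was at 783 and 589 CPM, and Hif1a alone had an interval below 0 among its 7 genes at 10 CPM. Vegfa (57.6 and 52.8 CPM), P4ha1 (a collagen prolyl hydroxylase, 88.5 and 98.3 CPM), Bnip3l (69.3 and 67.2 CPM) and Egln1 (19.8 and 25.7 CPM) had intervals that held 0. The glucose transporter Slc2a1 did as well, at 98.6 and 110 CPM. The lactate exporter Slc16a3 was lower in the library labelled Runx3, at 105 and 67.6 CPM (-0.63, -0.91 to -0.35).

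In monocytes, too, the sum was lower in the library labelled Runx3. It was at 5158 and 3942 CPM, a log2 ratio of -0.39 (-0.42 to -0.36), or -0.55 relative to the median of all counted genes. Of 27 genes 1 was apart and higher, against 11.0% of all counted genes (8.74% higher and 2.23% lower), and 18 had a ratio below 0. The gene apart was again Pfkfb4, at 12.9 CPM (10.1 to 16.3) and 32.4 CPM (26.9 to 38.6), 1.26 on the log2 scale (0.85 to 1.68), or 0.89 with 10 CPM added. The lowest ratio was that of Pgk1 (chromosome X, 106187100 to 106203699, plus strand), at 279 CPM (265 to 293) and 147 CPM (135 to 159), -0.92 on the log2 scale. All 7 of the genes at 10 CPM from aldolase to pyruvate kinase had intervals below 0. Slc2a3 (10.0 and 20.0 CPM, 0.93) and Pfkfb3 (46.1 and 73.7 CPM, 0.67) went the other way. In this class the macrophage markers summed to 643 and 1554 CPM and the monocyte markers to 7951 and 5010 CPM. Of the latter, Lyz2 was at 3213 and 910 CPM, Plac8 at 3266 and 2800 CPM and S100a4 at 884 and 679 CPM. F13a1 and Vcan were lower as well, and Ccr2 (297 and 333 CPM), Fn1 and Chil3 were higher.

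Neutrophils showed the largest single difference of the myeloid classes, in Gpi1. Gpi1, phosphoglucose isomerase (chromosome 7, 34201330 to 34230336, minus strand), stands where glycolysis and the pentose phosphate pathway meet. The library labelled Runx3_fl held 110 CPM (interval from 100 to 121) and the library labelled Runx3 held 380 CPM (from 361 to 399), which is 1.77 on the log2 scale (1.62 to 1.93). Over the other 6 classes it ranged from 77.2 to 178 CPM in the first library and from 109 to 176 CPM in the second. Pfkfb4 was at 31.5 CPM (26.2 to 37.4) and 72.2 CPM (64.3 to 80.8), 1.17 on the log2 scale (0.88 to 1.47), and stayed past 2-fold in 3 of 7 other settings. These were the 2 genes apart of 28 at 10 CPM, against 19.0% of all counted genes (13.1% higher and 5.88% lower).

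The sum of neutrophils was higher in the library labelled Runx3, at 3872 and 4496 CPM (0.22, 0.18 to 0.25), but the median of all counted genes was 0.24 in this class, and relative to it the sum was at -0.02. All 7 genes at 10 CPM from aldolase to pyruvate kinase had a ratio above 0, led by Aldoa (181 and 274 CPM, 0.60). The opposite held for Hk1 (158 and 95.5 CPM, -0.72), Pfkp (179 and 124 CPM, -0.52), Hif1a (284 and 218 CPM, -0.38) and Bnip3, the lowest at 25.3 CPM (20.6 to 30.7) and 14.2 CPM (10.9 to 18.3), -0.79 on the log2 scale. The neutrophil classes also differed in their markers: S100a8 was at 3893 and 43265 CPM and Ly6g at 6.44 and 190 CPM. S100a9 and Retnlg were higher as well, and Mmp9 was at 380 and 640 CPM. Cxcr2 was nearly level at 205 and 237 CPM, and Il1r2 was lower at 1302 and 1030 CPM. When the class was narrowed to cells with a UMI of Cxcr2, a receptor of mature neutrophils (365 and 245 cells), the log2 ratio of Gpi1 was 2.59 and that of the sum 0.66, and 8 genes were higher by 2-fold in place of 2. With the mean of single cells' CPM, which weights each cell equally, Gpi1 was at 1.04 and Pfkfb4 at 0.58.

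**Figure D4:**
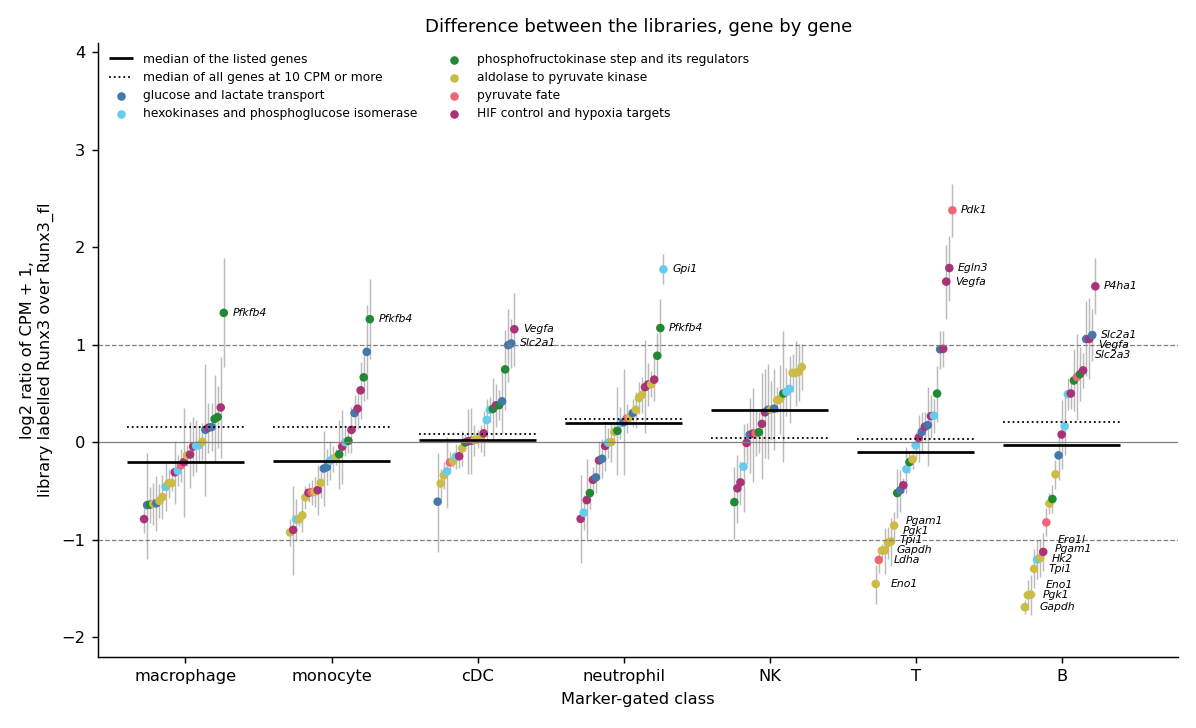
Log2 ratio of CPM plus 1, the library labelled Runx3 over the library labelled Runx3_fl (vertical axis), for each listed gene at a mean of 10 CPM or more in the 7 classes, coloured by role with exact counting intervals. The solid line is the median of the listed genes and the dotted line that of all counted genes. Dashed lines mark 2-fold, and the named genes lie beyond it: 1 in macrophages and monocytes, 2 in cDCs and neutrophils, 0 in NK cells, 9 in T cells and 11 in B cells.

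In cDCs the sum was nearly level, at 3444 and 3360 CPM (-0.04, -0.06 to -0.01). Of 26 genes 2 were apart, against 7.63% of all counted genes (6.13% higher and 1.49% lower). Both were higher, and their share of the listed genes was close to that of all genes. Vegfa was at 10.4 CPM (8.77 to 12.4) and 24.6 CPM (19.9 to 30.1), 1.16 on the log2 scale, and Slc2a1 at 26.2 and 54.0 CPM (1.01, 0.76 to 1.26). Slc2a1 was past 2-fold in 3 of 6 other settings and Vegfa in 4 of 6, with 0.75 for Vegfa without cells of over 20000 UMIs. The lowest was Slc16a1, at 13.8 and 8.73 CPM (-0.61, -1.12 to -0.11). The cDC classes differed in their markers, with Xcr1 at 92.1 and 18.5 CPM, Clec9a at 80.6 and 38.1 CPM and Cd209a at 45.7 and 185 CPM.

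In NK cells the sum was at 2580 and 3049 CPM (0.24, 0.18 to 0.30), and 0 of 23 genes were apart, against 5.1% of all counted genes (3.67% higher and 1.43% lower). The library labelled Runx3 held 90 NK cells, so its intervals were wide. All 7 genes at 10 CPM from aldolase to pyruvate kinase had intervals above 0, Aldoa the highest at 109 CPM (103 to 115) and 187 CPM (160 to 217), 0.77 on the log2 scale. Pfkfb3 was the lowest at 109 and 70.7 CPM (-0.61, -0.99 to -0.25).

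In T cells the enzymes from aldolase to pyruvate kinase were lower in the library labelled Runx3, at 2498 and 1319 CPM (-0.92, -0.97 to -0.87). The sum of all listed genes was at 4894 and 3431 CPM (-0.51, -0.54 to -0.48). Of 26 genes 9 were apart, 3 higher and 6 lower in the library labelled Runx3, against 20.6% of all counted genes (11.0% higher and 9.64% lower). The 6 were Eno1 at 198 CPM (194 to 203) and 71.8 CPM (62.2 to 82.3), -1.45 on the log2 scale, and Ldha (-1.21), Gapdh (-1.11), Tpi1 (-1.11), Pgk1 (-1.03) and Pgam1 (-1.02). Pdk1, the kinase that shuts off pyruvate dehydrogenase and so the entry of pyruvate into mitochondria, was at 8.97 CPM (8.05 to 9.97) and 50.9 CPM (42.9 to 59.9), 2.38 on the log2 scale (2.10 to 2.65). Egln3 was at 8.50 and 31.8 CPM (1.79) and Vegfa at 6.76 and 23.3 CPM (1.65), while P4ha1 (47.2 and 92.6 CPM, 0.96) and Slc2a1 (43.8 and 85.9 CPM, 0.95) lay just inside 2-fold. Of the 7 genes of oxygen sensing and hypoxia targets at 10 CPM, 2 were apart, Egln1 had an interval that held 0 (0.05, -0.20 to 0.28), and Hif1a was lower (-0.44), so that the sum of the group was at 1029 and 951 CPM (-0.11, -0.17 to -0.06). After thinning, 2.11% (1.60 to 2.72) and 10.1% (7.13 to 13.9) of T cells held a Pdk1 UMI, as did 0.468% and 1.14% of NK cells. The makeup of the T classes differed: the 6 T cell markers summed to 3639 and 1923 CPM and the 6 NK markers to 2884 and 318 CPM, with all of both lists detected. Of the NK markers, Gzma, a granzyme of cytotoxic cells, was at 1795 and 124 CPM and Nkg7 at 992 and 153 CPM. Eomes and Prf1 were lower as well, but Klrb1c was level at 5.98 and 6.01 CPM and Klre1 was at 8.55 and 12.0 CPM. Ccr7, a homing receptor of naive and central memory T cells, was at 27.4 and 212 CPM. Their part in the differences was not tested.

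In B cells, too, the enzymes from aldolase to pyruvate kinase were lower, at 1728 and 704 CPM, in classes whose makeup differed. The sum was at 2642 and 1651 CPM (-0.68, -0.71 to -0.64). Of 24 genes 11 were apart, 4 higher and 7 lower, against 33.7% of all counted genes (18.1% higher and 15.6% lower). Gapdh was lowest at 883 CPM (860 to 906) and 273 CPM (261 to 285), -1.69 on the log2 scale, with Pgk1, Eno1, Tpi1, Hk2, Pgam1 and Ero1l (an oxidase of the endoplasmic reticulum) between -1.57 and -1.12. P4ha1 was highest at 18.1 CPM (15.0 to 21.8) and 57.1 CPM (51.8 to 62.7), 1.60 on the log2 scale, followed by Slc2a1 (1.10), Vegfa (1.06) and Slc2a3 (1.06), which stayed past 2-fold in 2, 2 and 1 of 7 other settings. The group of oxygen sensing and hypoxia targets was at 287 and 366 CPM (0.35, 0.26 to 0.44). The summed level of 5 plasma cell markers was 16807 and 8236 CPM and that of 6 B cell markers 1336 and 6641 CPM. Within the cells that held a UMI of Ms4a1, a gene of B cells that plasma cells lack (109 and 704 cells), the sum was at -0.24, and 1 gene was higher and 1 lower.

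Within the macrophage class, the 32 genes were compared between cells with and without a UMI of Nos2, the inducible nitric oxide synthase of inflammatory macrophages. In the library labelled Runx3_fl, 62 macrophages with Nos2 held 6406 CPM of the 32 genes and 192 without held 4713 CPM, a log2 ratio of 0.44 (0.40 to 0.49). In the library labelled Runx3, 8 cells with Nos2 held 5527 CPM and 268 without held 4063 CPM, a log2 ratio of 0.44 (0.32 to 0.56). In monocytes the ratios were 0.47 (0.43 to 0.52) and 0.28 (0.14 to 0.42). Nos2 was at 56.6 and 5.00 CPM in the monocyte classes, so few Nos2 UMIs were counted in the second. There Gapdh (-0.43, -0.87 to -0.01) and Ldha (-1.10, -2.30 to -0.13) were lower in the cells with Nos2. Hif1a (1.22, 0.85 to 1.57), Pkm (0.75, 0.41 to 1.07), Hk1 and Hk3 had intervals above 0, and the intervals of the other listed genes held 0. Cells with a Nos2 UMI were deeper, with medians of 14178.5 against 12071.5 UMIs and 10707 against 6299 UMIs in macrophages, and the part of depth was not tested.

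Hif1a itself was higher in the Nos2 macrophages of the library labelled Runx3_fl, at 603 against 396 CPM (0.61, 0.45 to 0.76). In the other library it was at 356 against 257 CPM, with an interval that held 0 (0.47, -0.04 to 0.94). Although the sum was higher in the Nos2 macrophages of both libraries, not every gene was. Slc2a3 was lower in them in the library labelled Runx3_fl (-2.38, -3.80 to -0.79), and Pfkp in the library labelled Runx3 (-1.57, -2.98 to -0.44). Nos2 was at 72.4 and 9.02 CPM in the macrophage classes. A split by Ly6c2, a marker of cells recently derived from monocytes, gave a log2 ratio of 0.20 (0.15 to 0.25) in the library labelled Runx3_fl, with 5399 CPM in the 165 cells with it and 4693 CPM in the 89 without. In the library labelled Runx3 the same split gave -0.05 (-0.13 to 0.02), with 4109 CPM in 223 cells and 4268 CPM in 53. Ccr2, also a monocyte marker, was higher in the cells with Ly6c2 in the library labelled Runx3_fl (0.60, 0.38 to 0.83). In the other library it was not (-0.26, -0.53 to 0.03). For Mertk, a macrophage marker, the intervals held 0 in both libraries.

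Neighbouring pathways were described from lists of their genes, and their counts in macrophages stand beside the 12.7% of all counted genes that were apart there. Of 18 other glycolysis genes 5 were at 10 CPM in macrophages and 1 was apart, Pgp, a phosphatase of glycolytic by-products, at 11.0 and 27.5 CPM (1.25). Of 27 other hypoxia response genes 19 were at 10 CPM in macrophages and 1 was apart, Hmox1, heme oxygenase, which was higher at 59.9 and 244 CPM (2.01). Of 24 genes at 10 CPM for pyruvate entry and the TCA cycle, Dlat, a subunit of pyruvate dehydrogenase, was higher at 12.0 and 34.3 CPM (1.44). Acod1, which turns the TCA intermediate aconitate into itaconate in activated macrophages, was lower at 1476 and 401 CPM (-1.88).

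In neutrophils the pentose phosphate pathway, which branches off where Gpi1 acts and yields NADPH, was at 619 and 1431 CPM, with 4 of its 7 genes higher by 2-fold, against 13.1% of all counted neutrophil genes. The median log2 ratio of the 7 was 1.20, beside 0.24 for all. Its largest contributors were Tkt, transketolase, at 106 and 505 CPM, and Taldo1, transaldolase, at 293 and 427 CPM. Adpgk, an ADP-dependent glucokinase singled out after its values were seen, was at 10.9 and 277 CPM in neutrophils. In macrophages 0 of the 7 pentose phosphate genes were apart, with sums of 730 and 876 CPM. Of 20 respiratory chain genes, 11 were lower by 2-fold in T cells of the library labelled Runx3, where 9.64% of all counted genes were, and 14 in B cells, against 15.6%, and 0 in each of the other 5 classes. Their median log2 ratio was -1.08 in T cells and -1.59 in B cells, and it was also below 0 in monocytes (-0.56), cDCs (-0.32) and macrophages (-0.19).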

How the data were processed

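RNA of single cells was measured in 2 libraries with 10x Genomics 3′ chemistry. The authors deposited filtered matrices of UMI counts, 1 row per gene and 1 column per barcode, as whole numbers without normalization, from Cell Ranger 7.1.0 per the file headers; the submitters' processing notes name mm10 and Seurat 4. Of 32285 gene identifiers, 32235 were in GENCODE M21 (GRCm38), from which positions were taken. The members, pathway lists and gates were chosen with earlier results of these data known.

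Cells with 200 to 6000 genes and at most 15% mitochondrial UMIs, the limits of the study, were kept. The upper limit, and leaving out cells of 2 or more classes, were the treatment of doublets, and cells were not clustered. Counts were summed per class and library and given per 1000000 with exact Poisson intervals. Ratios used a pseudocount of 1 CPM, with intervals from the exact binomial of the counts, and shares carry Clopper-Pearson intervals. A count of 0 was taken to allow 3 counts. Ratios were tested on simulated data. In the list of other hypoxia response genes 1 gene is not reported here and was left out of the counts. Full values are given for genes at least 2-fold apart in macrophages, monocytes or neutrophils, for the highest and lowest ratio in each class and for the families. Python 3.11.15, numpy 2.4.6, scipy 1.17.1 and pandas 2.3.3 were used.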

Additional observations from a re-analysis of the deposited data

Results flagged for a closer look

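The difference between the libraries in the summed level of the 32 genes had opposite signs in different classes, which is why it is listed here. As log2 ratios of the library labelled Runx3 over the library labelled Runx3_fl, it was 0.22 in neutrophils and 0.24 in NK cells, against -0.32 in macrophages, -0.39 in monocytes, -0.04 in cDCs, -0.51 in T cells and -0.68 in B cells. The median of all counted genes was itself 0.24 in neutrophils, beside 0.04 in NK cells, and the sign of the cDC sum depended on the setting. With 1 library per group, the difference between classes was not tested.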

How the results depend on the processing

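No paired analysis was possible because each group had 1 library, and no replicate was left out for the same reason. The counting intervals leave out differences between animals, and the library labelled Runx3 held 90 NK cells. Values are log2 ratios of the summed level, and counts are of genes 2-fold or more higher or lower in the library labelled Runx3.

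The direction of a sum changed in 3 cases. The cDC sum, -0.04, was 0.0185 with 2 UMIs of each gate gene and 0.0262 without cells of over 20000 UMIs, and the neutrophil sum, 0.22, was -0.0233 with the median gene set to 0. With 2 UMIs of each gate gene, the sums were -0.26 in macrophages, -0.34 in monocytes, 0.26 in neutrophils, 0.31 in NK and -0.46 in T cells, 4 genes were higher in cDCs and 1 in NK cells, 3 were lower in T cells, and the Pfkp share of macrophages differed by -3.36 percentage points in place of -7.65. Without cells of over 20000 UMIs, the sums were 0.11 in neutrophils and -0.31 in B cells, 2 genes were higher and 2 lower in monocytes, 1 was higher and 2 lower in B cells, and the Slc2a3 share of macrophages differed by 9.27 points in place of -0.13. With all deposited barcodes, the sums were 0.26 in neutrophils and -0.50 in B cells, 1 gene was higher in cDCs and 4 lower in B cells.

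With the mean of single cells' CPM, the sums were -0.44 in monocytes, 0.17 in neutrophils and -0.37 in B cells, 2 genes were higher in macrophages, 3 higher and 2 lower in monocytes, 4 higher in cDCs, 2 higher and 4 lower in B cells, and the Slc2a3 share of macrophages differed by 5.26 points. With the median gene set to 0, the sums were -0.48 in macrophages, -0.55 in monocytes, -0.13 in cDCs, -0.55 in T and -0.89 in B cells, 2 genes were lower in monocytes, 1 higher in cDCs, 1 higher and 1 lower in neutrophils, and 1 higher in B cells. With 10 CPM added, 0 genes were higher in macrophages, monocytes and cDCs and 1 in neutrophils and B cells, and 3 were lower in T cells. Among genes with at least 10 UMIs, 2 were higher in macrophages, 7 higher in B cells and 3 lower in NK cells. Without the need for Csf1r, the monocyte sum was -0.25.

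The following were chosen after seeing the data. Where a Csf3r UMI did not take a cell out of its class (519 and 724 macrophages), the sums were -0.26 in macrophages and -0.30 in monocytes, with 2 genes higher in each, and the Slc2a3 share of macrophages differed by 10.7 points. With Cxcr2 in the neutrophil gate, the sum was 0.66, with 8 genes higher and 2 lower. With Ms4a1 in the B gate, the sum was -0.24, with 1 gene higher and 1 lower. Apart from what the settings change by construction, the cause was not tested. Of 13 macrophage shares, 6 took another sign in some setting, that of Slc2a3 among them, and the interval of each of the 6 held 0. The 26 listed genes apart, counted per class, kept their direction, but 6 stayed 2-fold apart in every setting and 9 in no more than 3 of 6 or 7 settings. Genes of the neighbouring pathways were not run. Pfkfb4 in macrophages ranged from 0.92 to 1.69 over 7 settings and Gpi1 in neutrophils from 1.04 to 2.59.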
